A study of Arabidopsis thaliana with 6 samples.

Results

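Phytochromes, cryptochromes and phototropins are the main photoreceptor proteins of Arabidopsis thaliana, and 9 genes encode them. The phytochrome genes are PHYA (AT1G09570), PHYB (AT2G18790), PHYC (AT5G35840), PHYD (AT4G16250) and PHYE (AT4G18130). The cryptochrome genes are CRY1 (AT4G08920) and CRY2 (AT1G04400), and the phototropin genes PHOT1 (AT3G45780) and PHOT2 (AT5G58140). The question here was where Myc-tagged PIF1 was found at these genes in dark-grown seedlings. The 9 genes were chosen by locus code out of 27444 protein-coding nuclear genes. A peak was assigned to a gene where its summit, the position of highest tag density, lay inside the gene or within 3000 bp of either end. By this rule 4 of 4578 peaks of list 1, 9 of 12776 of list 2 and 11 of 7678 of list 3 belonged to the photoreceptor genes.

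Phytochromes absorb red and far-red light through a bilin chromophore, and in the light they bind PIF proteins such as PIF1, which are then degraded. Cryptochromes absorb blue light through a flavin and act on growth and flowering. Phototropins are blue-light-activated kinases that direct bending towards light, chloroplast movement and stomatal opening. PIF1 itself is a DNA-binding protein of the basic helix-loop-helix family and holds back light responses in darkness.

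Chromatin was immunoprecipitated with an anti-Myc antibody from seedlings overexpressing Myc-tagged PIF1 (P1M) and from wild-type seedlings, and the precipitated DNA was sequenced (ChIP-seq). All seedlings were 3 days old, had 3 h of white light at the start of germination and were then kept in darkness at 21 °C. There were 3 PIF1 and 3 wild-type libraries, each pooling 4 immunoprecipitations of 2 biological replicates. Peaks were called for each PIF1 library against the wild-type library with its number, which gave lists 1, 2 and 3. The tagged protein was overexpressed, so the peaks describe that line, and whole seedlings were used, so they do not separate tissues.

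Library 1 stood apart. It held 14209334 filtered PIF1 tags against 5825479 and 5721184 in libraries 2 and 3, but its list had the lowest median fold enrichment (2.71, against 5.29 and 3.87). Fold enrichment is the authors' ratio of PIF1 tags to the local wild-type background at a peak, and it was used to rank peaks within a list. The false discovery rate (FDR) that the peak caller made by swapping PIF1 and wild type was 100% for every peak of list 1. An FDR of 100% was also given to 82.5% of the peaks of list 3, against 0% of those of list 2. Of the 24 photoreceptor gene peaks, 12 stood at an FDR of 100% and 3 at 5% or less. No sequences are shown, because no sequence of these loci was used here.

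Most of the photoreceptor genes had a peak in lists 2 and 3, but PHYB was the only 1 of the 9 with a region held by all 3 lists. In list 1, 4 of the 9 genes had a peak (PHYB, PHYC, CRY1 and PHOT1), against 26.3% of all protein-coding genes. In list 2, 8 of 9 had a peak, all but PHYE, against 59.5% of all genes. In list 3, 7 of 9 had a peak, all but PHYE and PHOT2, against 41.6%. In any list at all, 8 of 9 had a peak, against 73.3%. Peaks were joined into regions where those of 2 lists had 1 bp or more in common, and 6 genes (PHYA, PHYB, PHYC, PHYD, CRY1 and PHOT1) had a region of at least 2 lists, against 30.0% of all genes. A region of all 3 lists was present at 1 of 9 genes, against 9.51% of all genes, so this share was near the background. No test was made over 9 chosen genes. The photoreceptor genes are long, with a median of 4594 bp against 2078 bp for all genes, and 33.3% of the 6063 genes of at least 3185 bp had a region of at least 2 lists. Of those 6063 genes, 32.6%, 65.7% and 47.8% had a peak in lists 1, 2 and 3, and 80.0% had one in any list. Without library 2 or without library 3 the count of 6 dropped to 1, PHYB, because 5 of the 6 regions were shared by lists 2 and 3 alone. With library 2 or 3 left out in this way, 10.5% and 13.0% of all genes had a region.

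**Figure D1:**
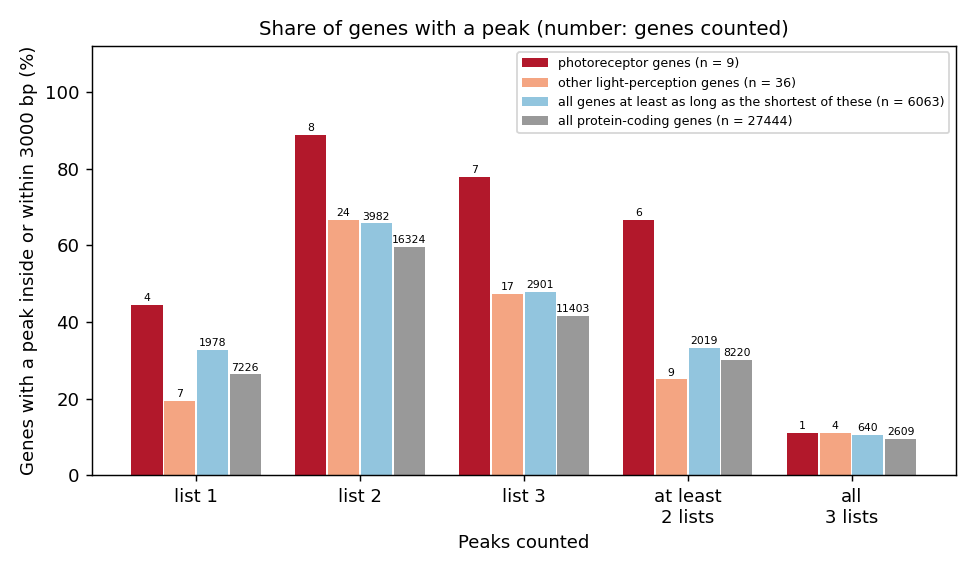
Share of genes (%) with a peak or region inside or within 3000 bp, for the 9 photoreceptor genes, 36 other light-perception genes, all genes of at least 3185 bp and all protein-coding genes; the number on each bar is the count of genes. The photoreceptor bar is the tallest for each single list and for regions of at least 2 lists, and lies near the others for regions of all 3 lists, where it is 1 gene.

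PHYB, the main red-light receptor of light-grown seedlings, had the strongest peak of the 9 genes in each list. The region lay at chromosome 2, 8138725 to 8141105 (TAIR10). Its fold enrichments were 8.36, 39.06 and 25.89 in lists 1, 2 and 3, with a mean of 24.4 ± 15.4 (SD, n = 3). These values ranked 48th, 17th and 18th in their lists, so by fold enrichment the peak was near the top of every list. The ratios themselves differed with the library. Ranked by the peak caller's p instead, the peak was 267th, 7th and 12th. Its summits lay 138, 130 and 152 bp outside the low-coordinate end of the gene, within 22 bp of each other. The peaks held 754, 720 and 397 tags, or 53.1, 124 and 69.4 tags per 1000000 filtered tags of their library. By mean percentile of fold enrichment the region ranked 15th of the 1390 regions of all 3 lists. The next gene, AT2G18780, was 1474 bp from the mean summit, so PHYB was the nearest gene.

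The genes whose regions were most like that of PHYB were sought among 2606 protein-coding genes with a region of all 3 lists, by the summed difference in percentile over the lists. The closest was PIL2, which is PIF6, a relative of PIF1, with fold enrichments of 8.33, 39.83 and 32.95. AT3G62080 followed through that same region, 2540 bp away. The third was AT5G57670, with 8.36, 37.13 and 40.35.

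PHYA, the far-red receptor and the most abundant phytochrome of dark-grown seedlings, had the second strongest peak in lists 2 and 3 and none in list 1. The fold enrichments were 15.12 and 7.82, at the 95.7th and 93.1st percentile of their lists. The peaks were broad, 2377 and 1503 bp, against list medians of 578 and 534 bp, and held 750 and 371 tags. Their region lay at chromosome 1, 3099777 to 3102153 (TAIR10), with summits 473 and 517 bp inside the high-coordinate end of the gene as the gene table places it. In list 2 the PHYA peak held more tags than the PHYB peak (750 against 720), but over a longer interval. Per kb and 1000000 filtered tags it stood at 54.2 against 96.6 for PHYB. The FDR of the PHYA peaks was 1.21% and 17.87%, and that of the PHYB peaks in the same lists 2.94% and 8.33%.

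**Figure D2:**
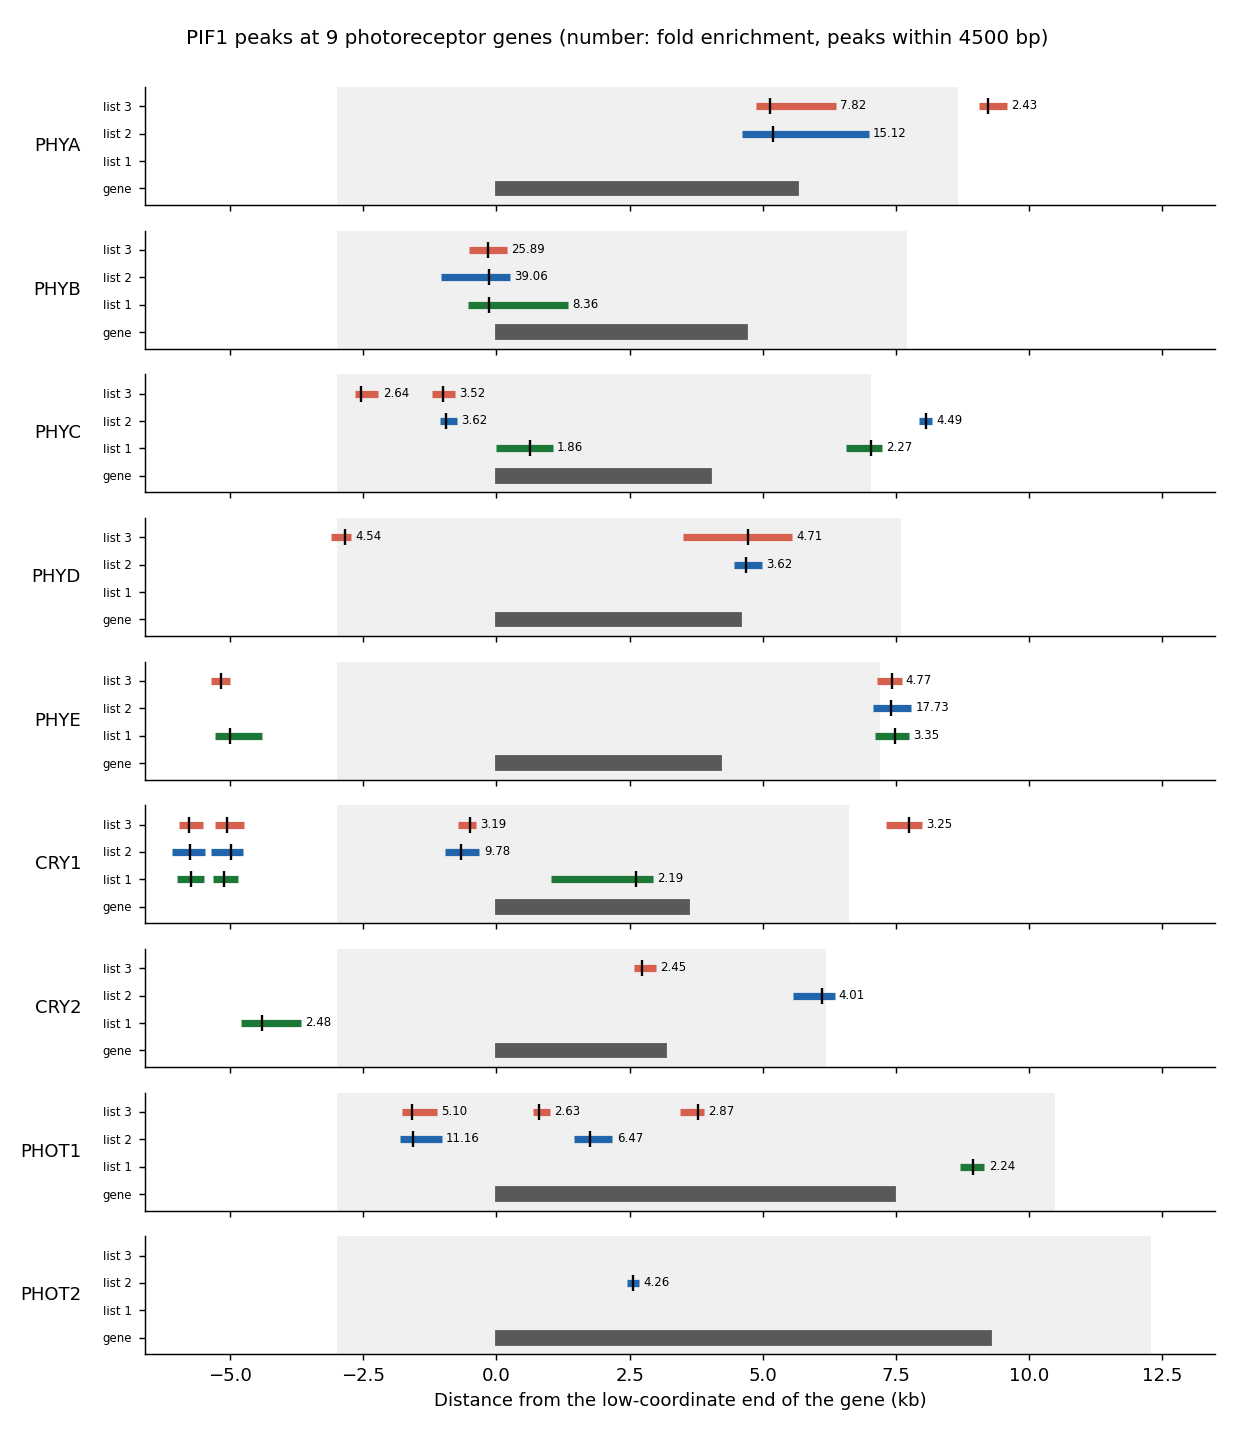
Peaks of each list along the 9 genes, as distance in kb from the low-coordinate end of the gene (dark bar); coloured bars are peak intervals, ticks are summits, numbers are fold enrichments and the grey area is the gene with 3000 bp on either side. The 3 PHYB summits align at the low-coordinate end. Within the grey area, the PHYA, PHYC, PHYD, CRY1 and PHOT1 regions of more than 1 list have summits of lists 2 and 3 alone. The 3 PHYE peaks on the high-coordinate side have their summits just past the grey area. In the CRY1 row, regions of all 3 lists lie beyond the grey area on the low-coordinate side.

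PHYC, PHYD and PHYE are the other phytochromes, which act mainly beside PHYB in red light and shade. PHYD is the closest relative of PHYB. At PHYD, lists 2 and 3 held peaks of 3.62 and 4.71-fold at chromosome 4, 9198756 to 9200800 (TAIR10), with summits 84 and 134 bp outside the high-coordinate end. The FDR of these peaks was 63.44% and 100%, and the highest FDR of any list 2 peak was 66.61%. In list 2 the PHYB peak had 10.8 times the fold enrichment of the PHYD peak, and in list 3 it had 5.50 times. AT4G16260, 23 bp from the mean summit, was nearer than PHYD (109 bp), so the region cannot be given to PHYD alone. The PHYD peak ranked low in list 2, at the 8.32nd percentile, and higher in list 3, at the 73.4th. Over all 3824 regions with 1 peak in each of these lists, the list 2 value was a median of 1.63 times that of list 3. At PHYD it was 0.769 times, at the 2.98th percentile of those regions. List 3 held 1 more peak near PHYD, of 4.54-fold, whose summit lay inside AT4G16240.

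At PHYC the list 1 peak lay apart from the region of lists 2 and 3. Lists 2 and 3 shared a weak region at chromosome 5, 14006595 to 14007073 (TAIR10), with 3.62 and 3.52-fold, 33 and 36 tags and an FDR of 63.63% and 100%. Its summits lay 937 and 1006 bp outside the low-coordinate end. List 1 instead held a peak inside the gene, 627 bp from that end, of 1.86-fold and at the 1.70th percentile of the list. List 3 also held a peak of 2.64-fold at 2546 bp. All of these were below the median fold enrichment of their lists.

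PHYE was the only gene of the 9 with no peak in any list under the 3000 bp rule, but a region of all 3 lists had its summits just beyond that limit, with peak intervals that reached inside it. This region, at chromosome 4, 10049200 to 10049929 (TAIR10), had summits 3267, 3198 and 3218 bp from the gene and fold enrichments of 3.35, 17.73 and 4.77. In list 2 that was the 97.3rd percentile. SSP4b (136 bp) and AT4G18150 (637 bp) were nearer to it than PHYE. The other peak just outside the limit was in list 1 at PHYC, 3005 bp away with 2.27-fold. Just inside the limit were the list 2 peak of CRY2, 2921 bp away with 4.01-fold, and the list 3 peak of PHYD at AT4G16240, 2840 bp away.

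CRY1, the cryptochrome that acts in strong blue light, had a region of lists 2 and 3 at chromosome 4, 5722694 to 5723334 (TAIR10). The fold enrichments were 9.78 and 3.19, at the 87.8th and 24.9th percentile, so its rank differed widely between the lists. The FDR of these peaks was 21.38% and 100%. The summits lay 672 and 499 bp outside the low-coordinate end. Their distance of 173 bp was above the upper quartile of the 3824 regions (93 bp; median 40 bp). CRY1 was the only gene within 3000 bp of that region. List 1 held a broad peak of 1910 bp inside the gene instead, with 401 tags and 2.19-fold. Beyond the 3000 bp limit, 4985 to 5761 bp from the low-coordinate end, lay regions of all 3 lists. At chromosome 4, 5717554 to 5718188 (TAIR10), the fold enrichments were 4.42, 14.5 and 6.1. At 5718298 to 5718920 they were 3.1, 6.52 and 3.7.

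CRY2, the cryptochrome that is degraded in blue light and promotes flowering, had no region of more than 1 list. List 3 held a peak inside the gene of 2.45-fold, at the 2.71st percentile of its list. The list 2 peak of 4.01-fold had its summit inside AT1G04420 and 159 bp from c-NAD-MDH1. The nearest region of at least 2 lists was 11097 bp from CRY2.

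PHOT1, the phototropin of weak and strong blue light, had the third strongest peak of the 9 genes in both lists 2 and 3. Its region on chromosome 3, 16814919 to 16815694 (TAIR10), had fold enrichments of 11.16 and 5.10, at the 91.1st and 78.6th percentile. The peaks held 323 and 125 tags, at an FDR of 1.13% and 64.37%. The summits lay 1558 and 1586 bp outside the low-coordinate end. A pseudogene, AT3G45775, was somewhat nearer to the mean summit (1278 bp) than PHOT1 (1572 bp). Inside PHOT1 lay 3 more peaks, of 6.47-fold in list 2 and of 2.63 and 2.87-fold in list 3, and none of these overlapped. The list 1 peak of 2.24-fold had its summit inside the next gene, AT3G45790.

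PHOT2, the phototropin of strong blue light, had 1 peak in all, although it is the longest of the 9 genes at 9287 bp. It lay inside the gene in list 2, with 36 tags, 4.26-fold and the 23.5th percentile. The nearest region of at least 2 lists was 22453 bp away.

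**Figure D3:**
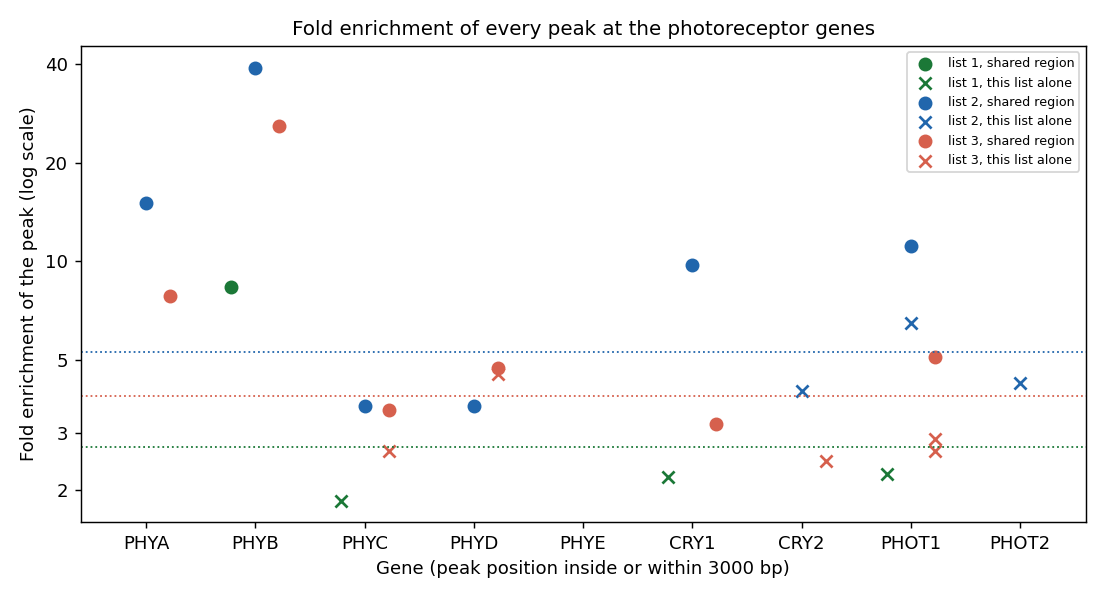
Fold enrichment (log scale) of each of the 24 peaks by gene and list; circles are peaks in a region of at least 2 lists, crosses are peaks of 1 list alone, and dotted lines are the median of each list (2.71, 5.29 and 3.87). PHYB is highest in each list, and 9 of the 11 crosses lie below the line of their list.

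Peaks in regions of at least 2 lists and peaks of 1 list are given apart here. Of the 13 peaks in regions of at least 2 lists, 9 were above the median fold enrichment of their list and 2 had their summit inside a photoreceptor gene, both at PHYA. Of the 11 peaks of 1 list alone, 2 were above the median and 7 had their summit inside a photoreceptor gene. The unshared peaks ranged between 1.86 and 2.24-fold in list 1, between 4.01 and 6.47 in list 2 and between 2.45 and 4.54 in list 3. Sharing enters the definition of the first set, and over all peaks the shared ones were likewise stronger in each list. The median fold enrichments of shared and unshared peaks were 3.39 against 2.44 in list 1, 6.99 against 4.84 in list 2 and 4.37 against 3.47 in list 3. The share of all such peaks above the median of their list was not computed. Over all protein-coding genes of at least 3185 bp, the summit was inside the gene in 22.3% of 5858 pairs of a shared peak and a gene within 3000 bp, and in 38.9% of 7455 pairs with an unshared peak. The photoreceptor counts are small and were not tested against these shares.

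In lists 2 and 3 the order by fold enrichment began with PHYB, PHYA and PHOT1. The mean percentile over lists 2 and 3 was 99.8 ± 0.0680 for PHYB, 94.4 ± 1.84 for PHYA, 84.9 ± 8.86 for PHOT1, 56.3 ± 44.5 for CRY1, 40.9 ± 46.0 for PHYD and 22.4 ± 19.9 for PHYC (SD, n = 2 each). The gap between PHYB and PHYA was larger than either SD, and that between PHYA and PHOT1 was only slightly larger. Each SD rests on 2 lists, and PHYB lies at the upper limit of the percentile scale, where an SD can only be small. These gaps are therefore a description only. The gaps between PHOT1 and CRY1, and among CRY1, PHYD and PHYC, were smaller than the SD of CRY1, so the order below PHYA and PHOT1 is not settled by these lists.

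**Figure D4:**
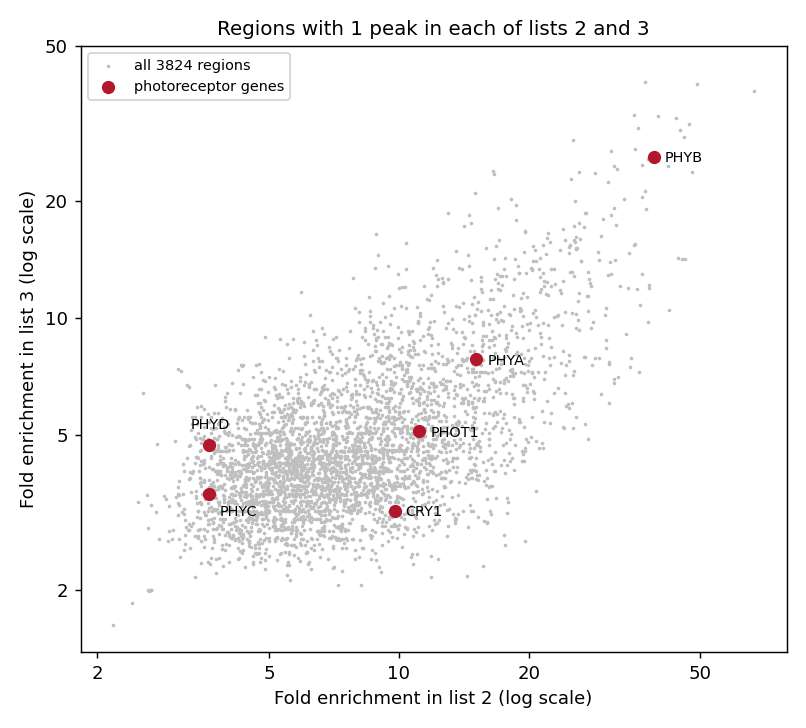
Fold enrichment in list 2 (x) and list 3 (y), both on log scales, of the 3824 regions with 1 peak in each list (grey) and of the 6 photoreceptor gene regions (red). PHYB lies at the upper right end of the cloud, PHYA and PHOT1 in its upper part, CRY1 low for list 3, and PHYD and PHYC at the left edge.

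Other genes of light perception were read from a list of 36 loci: further photoreceptors, photolyases, chromophore synthesis enzymes and partners of the 3 receptor families. Of these, 7, 24 and 17 had a peak in lists 1, 2 and 3 (19.4%, 66.7% and 47.2%). The shares of all genes were 26.3%, 59.5% and 41.6%. A region of at least 2 lists was present at 9 of 36, or 25%, against 30.0% of all genes. A region of all 3 lists was present at 4, or 11.1%, against 9.51% of all genes. These were CIB1, for a helix-loop-helix partner of CRY2 (7.65, 17.02 and 15.89-fold), RPT2, for a partner of the phototropins (2.60, 8.43 and 3.46), AT5G67385 and AT2G16365. FHL and FHY1, whose proteins carry PHYA into the nucleus, had regions of lists 2 and 3, with 23.98 and 16.93-fold and with 11.11 and 7.01-fold. AT4G14480 (BLUS1), for a kinase substrate of the phototropins in guard cells, had 12.32 and 5.73-fold in the same lists. PKS2, for a phytochrome kinase substrate, had 9.52 and 3.09-fold, and UVR3, a photolyase gene, 5.33 and 3.57-fold. The regions lay 13 bp from AT2G16365, 109.5 bp from FHL, 489 bp from FHY1, 640 bp from CIB1 and 1003.5 bp from UVR3. They lay farther from BLUS1 (1877.5 bp), RPT2 (2391 bp) and PKS2 (2781.5 bp), and genes nearer to them were not sought. AT5G67385 had peaks of each list inside it and others 2787 to 2820 bp away. Nearer to PKS2, list 2 alone held peaks of 5.34 and 4.61-fold, at 94 and 115 bp.

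A peak in any list was present at 26 of the 36 listed genes, or 72.2%, against 73.3% of all genes. The LOV-domain photoreceptor genes ZTL, FKF1 and LKP2, picked out after their values were seen, were among those without one. UVR8, for the ultraviolet-B receptor, had 1 peak of 2.42-fold in list 1, and CRY3 1 of 3.27-fold in list 3. Each of the 5 genes of chromophore synthesis (HY1, HO2, HO3, HO4 and HY2) had a peak in list 2, of 5.05 to 5.93-fold, where 59.5% of all genes had one. In list 1, 2 of the 5 had a peak (HO2 and HO3, of 2.67 and 2.66-fold), against 26.3% of all genes. In list 3, 2 of the 5 had one (HO4, of 4.66 and 3.03-fold, and HY2, of 2.83-fold), against 41.6%. Some summits lay near the 3000 bp limit: HY1 and HO2 in list 2 (2903 and 2844 bp) and HO3 in list 1 (2871 bp). No region of at least 2 lists was found at these 5 genes, which were picked out after their values were seen, against 30.0% of all genes.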

How the data were processed

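The files were 3 peak lists, made per the file headers with MACS 1.4.1 at a p cutoff of 1e-05, 1 PIF1 library against 1 wild-type library each. The submitters' processing notes also name CASAVA 1.8.0, Bowtie 0.12.7 and build TAIR10. Per the file headers, tag counts are unscaled tags of the PIF1 library, and the score is 10 times the negative log10 of the peak caller's p. The fold enrichment is the authors' ratio to the local background after the smaller data set was scaled towards the larger. The FDR is the deposited percent from swapped libraries. Excess duplicate tags had been removed by the authors, 70% and 66% of PIF1 libraries 2 and 3 being redundant against 13% of library 1, which leaves fewer distinct fragments in libraries 2 and 3. Wild-type libraries 1, 2 and 3 were 24%, 61% and 15% redundant, so PIF1 and wild type were far apart in list 3. Whether this bears on the fold enrichments was not tested.

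Gene extents came from a table of assembly TAIR10.1, without strand. It was used for names, neighbours and distances and may differ from the TAIR10 gene models. All 9 and 36 loci matched, and names of 10 of the 36 are not in the table. As a check, every peak with its summit in the PIF1 gene (2, 1 and 2 in lists 1, 2 and 3) lay wholly inside it.

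A region's position is the mean of its summits, and a percentile is the share of a list's peaks with an equal or lower fold enrichment. Named were the 9 genes with all their peaks, listed genes with regions, nearer neighbours and the 3 genes most like the strongest member. UVR8, CRY3, the LOV-domain and the chromophore synthesis genes were named after their values were seen. Members, lists and rules were chosen with earlier results of these data known. No test was fitted, because peak lists give no values per library outside of peaks. Libraries of 1 group may share seedlings, so their spread may be partly technical. The planned motif search was not run, since no sequence was used here. Alternatives changed the window, peak placing, thresholds, joining rule, gene set and libraries. Scripts (Python 3.11.15, pandas 2.3.3) were tested on simulated peaks.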

Additional observations from a re-analysis of the deposited data

How the results depend on the processing

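PHYA and PHYB kept a region of at least 2 lists under each of the 3 peak thresholds tried. A score of at least 100 left 1, 5 and 3 genes with a peak in lists 1, 2 and 3 and 3 genes with a shared region (PHYA, PHYB and PHOT1), against 16.3% of all genes. A fold enrichment of at least 5 left 1, 4 and 3 genes and the same 3 with a shared region, against 9.85%. An FDR of at most 50% left 0, 5 and 2 genes, 2 with a shared region (PHYA and PHYB, against 4.38%) and 0 with a region of all 3 lists, because list 1 has no peak at that level. Leaving out 1 library gave 1 to 6 genes with a shared region and 10.5% to 26.1% of all genes. A window of 5000 bp, or any overlap of the peak interval, raised the count with a region of all 3 lists to 2 through PHYE. The share of all genes was computed for shared regions only. The counts per list and for all 3 lists under these settings therefore have no background beside them. The share of all genes with a shared region was 17.5% with a window of 1000 bp, which removed PHOT1 from the 6. It was 15.0% with the nearest protein-coding gene only, which removed PHYD. PHOT1 stayed under that setting because the nearer AT3G45775 is a pseudogene. The counts of genes stayed within 1.5 times of those reported under the remaining settings. Ranking peaks by score in place of fold enrichment moved the mean percentile of the PHYB region from 99.5 to 98.0. It moved that of the PHYA region from 94.4 to 97.0. By score the regions at PHOT1, CRY1, PHYD and PHYC stood at 92.8, 41.1, 34.3 and 6.16. No paired analysis was possible because the peak lists already compare each PIF1 library with its wild-type library and hold no values per library. The shared region with the lowest mean fold enrichment, at PHYC, rests on 33 and 36 tags. The list 3 peak of the CRY1 region held 29 tags, at an FDR of 100%. Where a gene has no peak this says only that none was called at this depth.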
